A study of Mus musculus with 58 samples.

Results

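Control retinas collected 5 h after lights on (ZT5) were compared with control retinas collected 1 h after lights on (ZT1). The samples were chosen by their labels alone, as the control libraries of these time points, and they number 11 of the 58 libraries of the series, with 6 at ZT5 (replicates 1 to 6) and 5 at ZT1 (replicates 1, 2, 3, 4 and 6). Total RNA depleted of ribosomal RNA was sequenced from whole retinas of 4-month-old male mice that were perfused with cold saline and had been kept under 12 h of light and 12 h of darkness, with 6 time points in the control group and in the diabetic group. The control mice were male littermates without the phenotype (genotype label C57/BL/6) of heterozygous Ins2Akita males, which make a misfolding insulin, lose beta cells and become hyperglycemic, and the labels give no treatment for either genotype. The diabetic Ins2Akita retinas at ZT5 (n = 5) and ZT1 (n = 5) served here only for the same comparison in the other genotype. Each mouse was killed at 1 time point, so the morning change was measured between mice and not within them. The libraries are labelled as biological replicates, and the p-values measure the spread between them.

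The retina holds its own circadian clock, in which the activators CLOCK and BMAL1 (Arntl) drive the Per and Cry repressors, and light sets its phase each day. Photoreceptors keep their current running in darkness and are among the most energy-demanding cells of the body, with a high rate of glycolysis and lactate production, and light closes their channels and lowers that demand. Chaperones of the endoplasmic reticulum (ER) and of the cytosol fold new proteins, among them the opsins of the renewing outer segments, and are controlled by the unfolded protein response and by heat shock factor.

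Counted reads ranged from 12535762 to 18918015 per library at ZT1 and from 7773117 to 18020493 at ZT5, where replicate 3 was the shallowest of the series. The libraries held retina by their markers, since summed Muller glia markers made up 3933.1 to 4491.0 counts per 1000000 reads (CPM) at ZT1 and 3782.0 to 4112.9 at ZT5, and summed cone markers 911 to 1029.2 CPM at ZT1 and 1002.2 to 1098.6 at ZT5. The summed bipolar, amacrine, ganglion cell and microglia markers also overlapped between the groups. In bulk tissue, fewer cells of a type and less RNA per cell cannot be told apart. ZT1 replicate 6 stood apart, because its 18 lens markers summed to 3397.3 CPM against 1.85 to 29.2 CPM in the other 10 libraries. It held 29841 reads of the lens crystallin gene Cryaa, against at most 83 in any of the others, while Cryge, Crygf and Lim2 had no reads in any of the 11. Blood markers were low, at 0 to 8.60 CPM, and mitochondrial mRNAs took at most 2.17% of reads. Library counts were compared in pairs by chi-square per degree of freedom. It was 1.99 to 2.92 among ZT5 replicates 1, 2 and 3. Between these and ZT5 replicates 4, 5 and 6 it was 3.19 to 11.7, and among replicates 4 to 6 it was 3.69 to 7.05. Pairs of ZT1 libraries ranged from 2.65, between replicates 1 and 2, to 16.8, between replicates 3 and 6. The cause of these differences was not tested. Where a call below was lost without ZT1 replicate 6, the adjusted p without it is given.

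In control retinas, 154 of the 19120 genes tested (0.805%) differed between ZT5 and ZT1 at an adjusted p of 0.05 by edgeR's quasi-likelihood test. Of these, 89 were higher at ZT5 (0.465% of genes tested) and 65 were lower (0.34%). An unadjusted p under 0.05 was reached by 2070 genes (10.8%). The called changes were mostly small: the median log2 fold change was 0.61 among the genes that rose and -0.41 among those that fell, and 17 risers and 7 fallers changed by more than a factor of 2. Those 7 included Cryab and the lens genes Cryaa, Crybb1 and Crybb3, which were called only through the lens-bearing ZT1 replicate 6. The 5 ZT1 and 6 ZT5 libraries did not overlap for 66 of the 89 risers and 50 of the 65 fallers. Over all genes tested, 1.32% lay entirely higher and 1.13% entirely lower at ZT5. The fallers were almost all protein coding (62 of 65, 95.4%), whereas 27 of the 89 risers (30.3%) were non-coding or provisional transcripts other than pseudogenes. That class, which also holds small RNAs, made up 18.1% of the genes tested.

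Many calls lay near the threshold and depended on single libraries. Leaving out 1 library at a time left between 40 calls, without ZT5 replicate 1, and 171, without ZT5 replicate 5. Of the 154 genes, 34 were called in all 11 such fits (16 risers and 18 fallers), and all 154 kept their direction in every alternative fit. Without ZT1 replicate 6, 34 genes were higher and 33 lower, and 65 of these 67 belonged to the 154. The lens genes Cryaa, Crybb1 and Crybb3, with log2 fold changes of -8.08, -5.43 and -4.58, and the lens-rich small heat shock gene Cryab (-2.54) were among the 65 fallers only through that library, and their adjusted p without it ranged from 0.981 to 0.994.

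**Figure D1:**
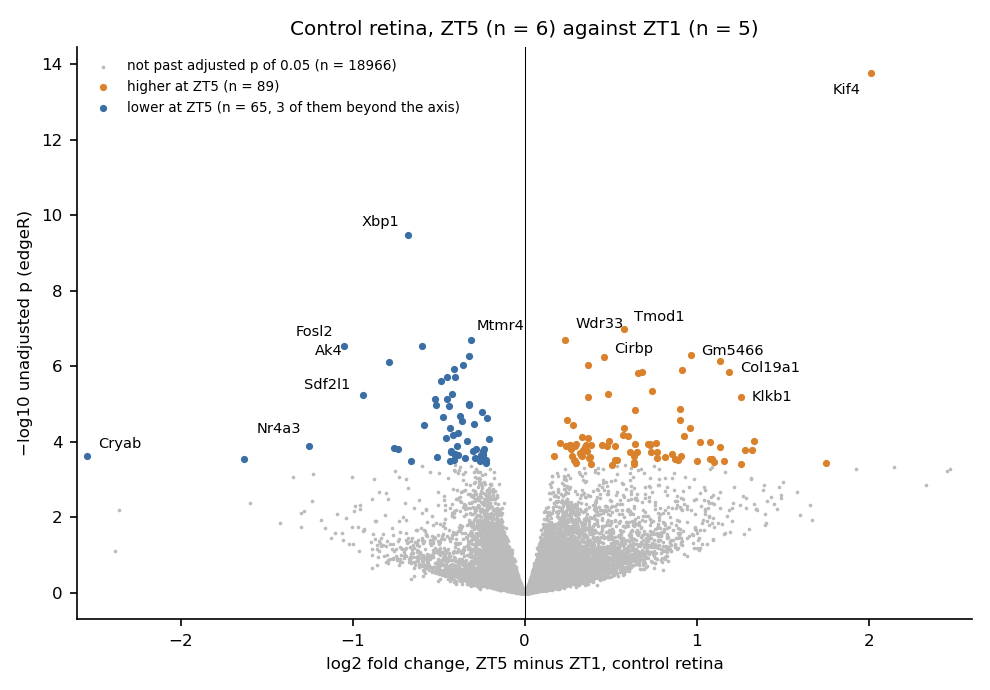
Log2 fold change from ZT1 to ZT5 in control retinas (x axis) against the negative log10 of the unadjusted p from edgeR (y axis), 1 point per gene tested. Kif4 stands alone at the upper right with a log2 fold change of 2.01 and Xbp1 leads the fallers at -0.68, while Cryaa, Crybb1, Crybb3, Bfsp1 and Bfsp2 lie beyond the left edge.

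Genes of the unfolded protein response were among the fallers. Of 21 genes for ER chaperones and the unfolded protein response, 5 fell, none rose and 18 had a negative value, with a median log2 fold change of -0.152 against 0.00868 over all genes tested, of which 47.4% had a negative value. Xbp1, the transcription factor spliced by IRE1 that switches on ER chaperone genes (chr11:5520659-5525893), had the smallest p of all fallers. Its level was 70.1, 67.3, 63.8, 64.6 and 72.1 CPM in the 5 ZT1 libraries and 38.7 to 48.4 CPM, with a median of 41.6, in the 6 ZT5 libraries. All ZT5 libraries lay under the lowest ZT1 library, and the log2 fold change was -0.68 ± 0.088 (SE, adjusted p = 3.16e-06). Hspa5, the ER chaperone BiP (chr2:34771970-34777547), had 227, 234, 215, 188 and 253 CPM at ZT1 and 145 to 171 CPM, with a median of 154, at ZT5. These groups did not overlap either, and Hspa5 fell by 0.52 on the log2 scale (SE 0.11, adjusted p = 0.00477). Sdf2l1, an ER-resident partner of the chaperone network, fell from 6.10 ± 1.14 (SD, n = 5) to 3.13 ± 0.600 CPM (SD, n = 6), a log2 fold change of -0.94 ± 0.19 (SE, adjusted p = 0.00426).

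Creld2, an ER-stress-induced gene with disulfide isomerase activity, fell by 0.44 (SE 0.090, adjusted p = 0.00628), with 1 ZT5 library at 15.6 CPM above the lowest ZT1 library at 15.1 CPM. Manf, a secreted ER-stress-inducible factor, fell by 0.39 (SE 0.10, adjusted p = 0.0375). Xbp1, Hspa5 and Sdf2l1 were called in all 11 leave-one-out fits. Without ZT1 replicate 6, the library with the highest value of all 5 genes, the list kept 3 calls, as Creld2 reached an adjusted p of 0.0515 and Manf of 0.133. Manf also missed the threshold without ZT1 replicate 1, 2 or 4 or ZT5 replicate 1, 2, 3 or 6. The members that were not called included the sensors Ern1 (0.05 ± 0.057, SE), Atf6 (-0.04 ± 0.044) and Eif2ak3 (-0.10 ± 0.047), and the chaperones Hsp90b1 (-0.08 ± 0.11), Calr (-0.17 ± 0.11) and Canx (0.02 ± 0.081). Ddit3, the death-linked factor CHOP, had a value of -0.17 ± 0.093, and none of the 17 targets of ATF4 in the integrated stress response was called (median -0.0497).

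The windows of 250 bases before the RefSeq start (GRCm38.p6) were searched on both strands for the ER stress element, CCAAT followed after 9 bases of any kind by CCACG, which binds NF-Y together with ATF6. It was found for 20 of the 11936 tested genes that had a window (0.168%) and for 2 of the 54 fallers with one, Hspa5 and Creld2, while none of the 59 risers with one held it. Manf had no window in the table, and the windows of Xbp1 and Sdf2l1 held no match to these letters. Both matches are shown with the element in capitals, as examples of a called gene and its promoter, for Hspa5 with 5 bases on each side (chr2:34772020-34772048, plus strand, inside the Gencode gene, which starts upstream of the RefSeq start) and for Creld2 with the whole window (chr15:88819396-88819645, plus strand), where the element reads on the opposite strand.
Hspa5: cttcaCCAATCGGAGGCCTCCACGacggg
Creld2: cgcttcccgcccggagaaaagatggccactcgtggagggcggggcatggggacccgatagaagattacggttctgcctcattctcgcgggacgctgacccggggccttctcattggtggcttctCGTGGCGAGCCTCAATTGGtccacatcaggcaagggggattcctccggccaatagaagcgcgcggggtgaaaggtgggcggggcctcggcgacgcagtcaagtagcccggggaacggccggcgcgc

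Cytosolic heat shock genes were also among the fallers. All 19 members of the heat shock list had a negative value (median -0.227), and 4 were called: Hsph1, Hspa1a, Hspa1b and Cryab, the last through the lens-bearing library. Hsph1, the HSP110 co-chaperone, had 62.0, 61.3, 61.7, 59.6 and 72.4 CPM at ZT1 and 42.4 to 51.3 CPM, with a median of 47.7, at ZT5, a log2 fold change of -0.41 ± 0.10 (SE, adjusted p = 0.0245). The inducible HSP70 genes Hspa1a and Hspa1b fell by 0.43 (SE 0.11, adjusted p = 0.0344) and by 0.51 (SE 0.13, adjusted p = 0.0389), and no ZT5 library reached the ZT1 range in either. These neighbouring genes are near-identical copies, so reads may be split between them. None of the 4 calls remained without ZT1 replicate 6, when Hsph1 reached an adjusted p of 0.106, Hspa1a of 0.125 and Hspa1b of 0.0969, and the median of the list was then -0.21. With the length and GC correction 9 members were called lower and the median was -0.318. Without ZT5 replicate 1 all 4 genes also missed the threshold, Hspa1a with an adjusted p of 0.132 and Hspa1b of 0.167. Hspa1a was called in 5 and Hspa1b in 2 of the 11 leave-one-out fits. Dnajb1 (-0.41 ± 0.11, adjusted p = 0.0505) and the constitutive HSP70 gene Hspa8 (-0.40 ± 0.11, adjusted p = 0.0608) lay just outside it.

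The heat shock element core GAANNTTC stood in the window of both inducible HSP70 genes, of 6 of the 54 fallers (11.1%), of 6 of the 59 risers (10.2%) and of 6.11% of the tested genes with a window. The Hspa1a window (chr17:34972157-34972406, minus strand) is shown because it is shared almost whole with Hspa1b, at 247 of 250 identical bases, with the core in capitals.
Hspa1a: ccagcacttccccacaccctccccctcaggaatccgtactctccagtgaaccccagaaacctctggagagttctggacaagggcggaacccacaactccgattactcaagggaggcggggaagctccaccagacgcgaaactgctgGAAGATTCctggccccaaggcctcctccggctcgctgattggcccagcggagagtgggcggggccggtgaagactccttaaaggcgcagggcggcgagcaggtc

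Cirbp moved the other way. This gene for a cold-inducible RNA-binding protein (chr10:80165985-80172786) had 157, 153, 141, 141 and 150 CPM at ZT1 and 186 to 218 CPM, with a median of 208, at ZT5. Every ZT5 library was above every ZT1 library, the log2 fold change was 0.46 ± 0.081 (SE, adjusted p = 0.00108), and the call held in all 11 leave-one-out fits. The other cold-inducible gene tested, Rbm3, had 52.0 ± 6.18 CPM at ZT1 and 54.9 ± 3.70 CPM at ZT5 (log2 fold change 0.08 ± 0.087, adjusted p = 0.844).

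**Figure D2:**
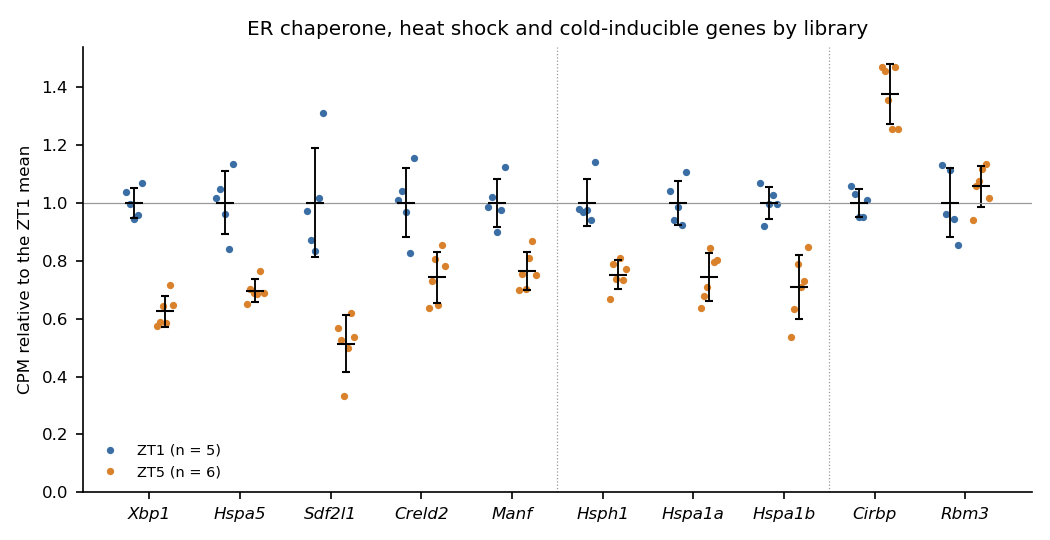
CPM of each library divided by the ZT1 mean of the gene (y axis) for ER chaperone, heat shock and cold-inducible genes (x axis, separated by dotted lines); blue points are the 5 ZT1 libraries, orange points the 6 ZT5 libraries, black bars mean ± SD. The ZT5 libraries of Xbp1, at 38.7 to 48.4 CPM, all lie under the ZT1 libraries at 63.8 to 72.1 CPM, those of Cirbp all lie above, and those of Rbm3 overlap.

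Glycolysis genes were also among the fallers. Of 17 glycolysis genes, 4 fell and all 17 had a negative value, with a median log2 fold change of -0.236. Hk2, the hexokinase that photoreceptors use to commit glucose to glycolysis (chr6:82725025-82774454), had 882, 776, 749, 715 and 581 CPM at ZT1 and 472 to 596 CPM, with a median of 531, at ZT5. The groups overlapped only through ZT1 replicate 6, the lowest ZT1 library, and Hk2 fell by 0.49 on the log2 scale (SE 0.092, adjusted p = 0.00214). The phosphofructokinase genes Pfkp and Pfkl, for the enzyme that sets the pace of the pathway, fell by 0.32 (SE 0.066, adjusted p = 0.00610) and by 0.36 (SE 0.079, adjusted p = 0.0121). Pfkp had 853 ± 42.4 CPM at ZT1 (SD, n = 5) and 682 ± 42.3 CPM at ZT5 (SD, n = 6). Ldha, which turns pyruvate into lactate, fell by 0.28 (SE 0.069, adjusted p = 0.0329), from 767 ± 77.0 to 632 ± 32.4 CPM. The libraries of these 3 genes did not overlap. All 4 calls remained without ZT1 replicate 6, but Pfkl was lost without ZT1 replicate 1 or ZT5 replicate 1 (adjusted p up to 0.0747), and Ldha without ZT1 replicate 1 or 2 or ZT5 replicate 1, 2 or 6 (adjusted p up to 0.170).

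The steps between these enzymes had smaller or noisier differences. Aldoa, Tpi1, Pgam1, Pgk1, Gpi1 and Gapdh had log2 fold changes of -0.31, -0.29, -0.25, -0.26, -0.24 and -0.21, with adjusted p between 0.0925 and 0.509. The isoforms Hk1 (-0.09 ± 0.10, SE), Pfkm (-0.01 ± 0.074), Aldoc (-0.09 ± 0.084), Eno2 (-0.08 ± 0.069) and Ldhb (-0.02 ± 0.088) lay closer to 0, and the difference between isoforms was not tested.

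Single genes of transport and of the hypoxia response fell too. Slc16a3, the lactate exporter MCT4, had 68.3, 56.2, 56.4, 59.5 and 46.9 CPM at ZT1 and 36.4 to 40.3 CPM at ZT5, without overlap (log2 fold change -0.58 ± 0.13, adjusted p = 0.0148; 0.0677 without ZT1 replicate 1). It was the only called gene of 18 for glucose and lactate transport and pyruvate entry, whose median was -0.0715. The glucose transporter gene Slc2a1 had 199 ± 13.9 CPM at ZT1 and 163 ± 7.53 CPM at ZT5, without overlap but short of the threshold (-0.29 ± 0.093, adjusted p = 0.147). Among 16 genes of the hypoxia-inducible factor 1 (HIF1) pathway, P4ha1, a collagen prolyl hydroxylase subunit induced by hypoxia, fell by 0.42 (SE 0.083, adjusted p = 0.00414) and none rose (median -0.118). Hif1a itself had a value of 0.05 ± 0.070 and Vegfa of -0.21 ± 0.081 (adjusted p = 0.274).

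The next 4 fallers belonged to none of the lists, and Pfkfb3, Lpin2 and Sik2 were named after their values were seen. Ak4, a mitochondrial adenylate kinase (chr4:101419277-101466995), had 62.3, 46.4, 52.0, 41.2 and 35.1 CPM at ZT1 and 23.1 to 30.4 CPM, with a median of 27.8, at ZT5. It fell by 0.79 on the log2 scale (SE 0.14, adjusted p = 0.00119), without overlap and in all 11 leave-one-out fits. Pfkfb3, which makes the activator of phosphofructokinase, fell by 0.45 (SE 0.084, adjusted p = 0.00175), from 57.7 ± 3.81 to 42.2 ± 3.96 CPM. Lpin2, a phosphatidate phosphatase, fell by 0.36 (SE 0.064, adjusted p = 0.00123), and Sik2, a salt-inducible kinase of the AMPK family, by 0.45 (SE 0.091, adjusted p = 0.00477), and both held in all 11 leave-one-out fits. None of the 75 nuclear-encoded respiratory chain genes tested was called, with a median of -0.042, which was -0.00776 without ZT1 replicate 6. No gene was called among 16 of fatty acid oxidation and ketone use, whose median turned from -0.0231 to 0.0291 without that library, or among 15 genes of insulin signalling, FOXO and Txnip (-0.0287).

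The core ACGTG, which HIF1 recognises and which is also part of the E-box CACGTG, was looked for after the fallers were known. It stood in the window of 24 of the 54 fallers with a window (44.4%), of 13 of the 59 risers (22.0%) and of 24.1% of all 11936 tested genes with a window. Of the called glycolysis genes, Hk2 and Ldha held it and Pfkp and Pfkl did not. Slc16a3, P4ha1, Ak4 and Pfkfb3 held it too, as did Cry1, Prcd and others of the 24, and in Ldha, Ak4, Pfkfb3 and Cry1 the window also held the E-box. The Hk2 window (chr6:82774455-82774704, minus strand) is shown because it holds 2 matches, in capitals, both on the opposite strand.
Hk2: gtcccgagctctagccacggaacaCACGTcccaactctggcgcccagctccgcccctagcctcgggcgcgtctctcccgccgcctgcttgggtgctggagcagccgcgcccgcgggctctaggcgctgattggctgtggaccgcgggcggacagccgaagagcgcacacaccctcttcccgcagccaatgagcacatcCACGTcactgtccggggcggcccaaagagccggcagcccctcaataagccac

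**Figure D3:**
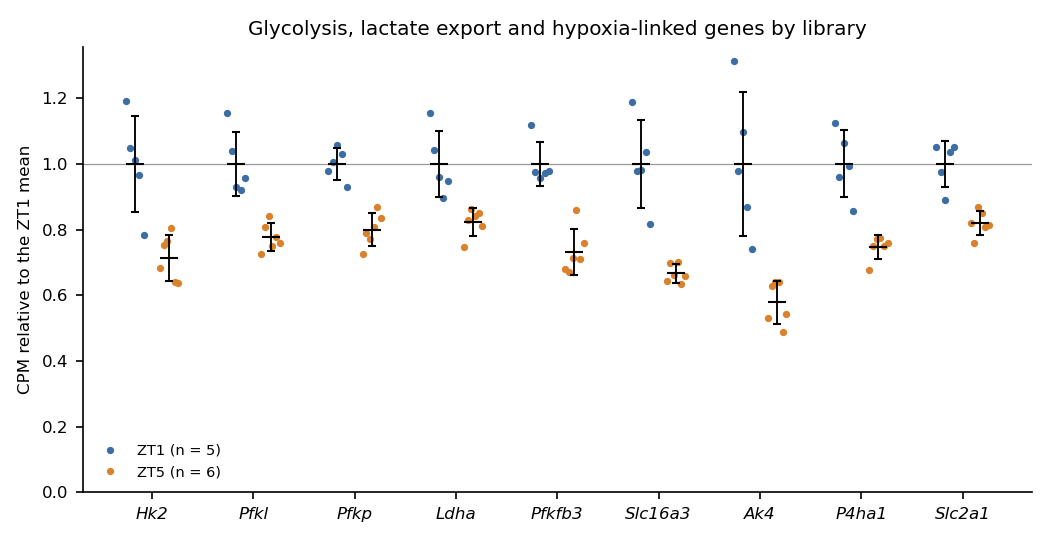
CPM of each library divided by the ZT1 mean of the gene (y axis) for glycolysis, lactate export and hypoxia-linked genes (x axis); blue points are the 5 ZT1 libraries, orange points the 6 ZT5 libraries, black bars mean ± SD. The ZT5 means lie under the ZT1 means in all 9 genes shown, from 0.578-fold for Ak4 to 0.823-fold for Ldha, and Hk2 and Slc2a1 differ in that the Hk2 groups overlap and Slc2a1 was not called.

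The clock genes had few calls. Of 6 repressor genes (Per1, Per2, Per3, Cry1, Cry2 and Ciart), Cry1 fell and the others were not called. Cry1 (chr10:85131700-85185064) had 64.2, 58.6, 60.7, 62.1 and 60.5 CPM at ZT1 and 46.3 to 54.1 CPM, with a median of 49.7, at ZT5. The groups did not overlap, yet the change of -0.30 ± 0.074 (SE, adjusted p = 0.0343) was called in only 3 of 11 leave-one-out fits, with adjusted p of 0.0733 without ZT1 replicate 6 and 0.117 without ZT5 replicate 1. It was also lost without ZT1 replicate 1, 3 or 4 or ZT5 replicate 2, 3 or 6. Per2 had 49.2 ± 7.28 CPM at ZT1 and 39.3 ± 4.23 CPM at ZT5 (-0.32 ± 0.12, adjusted p = 0.271), and Per1 had 153 ± 25.3 and 128 ± 24.9 CPM (-0.26 ± 0.14, adjusted p = 0.546). Per3 (-0.03 ± 0.080), Cry2 (-0.11 ± 0.067) and Ciart (0.32 ± 0.14) were not called.

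None of the 4 activators was called: Arntl had a log2 fold change of -0.09 ± 0.067 (SE), Clock of 0.05 ± 0.076, Npas2 of -0.20 ± 0.16 and Arntl2 of 0.17 ± 0.16. The stabilising loop was not called either, with Nr1d1 at -0.02 ± 0.14, Nr1d2 at 0.08 ± 0.10, Rora at 0.14 ± 0.074 and Rorb at -0.15 ± 0.091. Among the output factors, Dbp (0.19 ± 0.11), Tef (-0.04 ± 0.051), Hlf (-0.06 ± 0.061), Nfil3 (-0.31 ± 0.11), Bhlhe40 (-0.04 ± 0.10) and Bhlhe41 (-0.08 ± 0.061) did not pass the test, although Dbp was called with the length and GC correction and Nfil3 with limma-voom. Noct, a clock-controlled gene for a dinucleotide phosphatase that was named after its value was seen, fell by 0.26 (SE 0.068, adjusted p = 0.0424), in 3 of 11 leave-one-out fits. The E-box CACGTG stood in the window of 10 of the 54 fallers (18.5%), of 7 of the 59 risers (11.9%) and of 9.45% of all tested genes with a window. The Cry1 promoter is shown as the called clock gene, with its E-box in capitals (chr10:85185065-85185304, minus strand).
Cry1: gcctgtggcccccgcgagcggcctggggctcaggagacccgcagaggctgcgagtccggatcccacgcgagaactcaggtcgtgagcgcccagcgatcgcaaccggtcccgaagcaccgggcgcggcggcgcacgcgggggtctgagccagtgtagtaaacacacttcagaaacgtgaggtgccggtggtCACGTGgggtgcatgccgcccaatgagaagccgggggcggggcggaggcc

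Immediate early genes, which respond to light and neural activity within minutes, had 20 of 21 values negative and a median log2 fold change of -0.413, and 2 of them, Fosl2 and Nr4a3, fell past the threshold. Fosl2, a subunit of the AP-1 factor (chr5:32135801-32157842), had 15.7, 20.9, 18.2, 24.7 and 26.0 CPM at ZT1 and 7.04 to 14.4 CPM, with a median of 9.71, at ZT5. It fell by 1.05 on the log2 scale (SE 0.18, adjusted p = 0.000798), without overlap and in all 11 leave-one-out fits. Nr4a3, an orphan nuclear receptor, had 8.0, 10.5, 12.6, 13.5 and 10.6 CPM at ZT1. At ZT5 it had 1.89, 2.27 and 3.28 CPM in replicates 1 to 3 and 6.13, 7.45 and 6.54 CPM in replicates 4 to 6, without overlap with ZT1. Its level at ZT5 was 0.420-fold that at ZT1 (adjusted p = 0.0299). Its call was lost without ZT1 replicate 3, 4 or 6 or ZT5 replicate 1, 2 or 3, with adjusted p up to 0.127 and of 0.0578 without ZT1 replicate 6. Its relatives Nr4a1 (-0.87 ± 0.25, adjusted p = 0.0779) and Nr4a2 (-0.41 ± 0.11, adjusted p = 0.0583) lay just outside the threshold. The spread within groups was wide for Fos, at 40.8 ± 11.3 CPM at ZT1 and 26.7 ± 10.6 CPM at ZT5 (adjusted p = 0.546), and for Egr1, at 80.8 ± 28.1 and 65.8 ± 31.1 CPM (adjusted p = 0.936).

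Most genes of the visual response were not called. No gene was called among 10 of rod phototransduction (median -0.0391), 10 of cone phototransduction, 14 of outer segment structure (-0.0538), 15 photoreceptor transcription factors (-0.149) or 12 of the visual cycle. Arr3, cone arrestin, which quenches activated cone opsins (chrX:100605497-100618493), rose. It was the only called gene among 12 of photoresponse shut-off and calcium feedback, of which 9 had a negative value (median -0.0251). Arr3 had 151, 143, 178, 160 and 151 CPM at ZT1 and 190 to 223 CPM, with a median of 206, at ZT5, without overlap (0.39 ± 0.093, adjusted p = 0.0299). The Arr3 call was lost without ZT1 replicate 1, 2, 4 or 6 or ZT5 replicate 1, 2 or 3, with adjusted p up to 0.100 and of 0.0945 without ZT1 replicate 6. Prcd, a small outer segment disc protein whose gene is mutated in progressive rod-cone degeneration and which was named after its value was seen, fell by 0.26 (SE 0.065, adjusted p = 0.0396), in 3 of 11 leave-one-out fits, with an adjusted p of 0.106 without ZT1 replicate 6 and up to 0.172 without ZT1 replicate 1. The clock-controlled retinal genes Adcy1 (0.20 ± 0.059, adjusted p = 0.11) and Plekhb1 (-0.29 ± 0.083, adjusted p = 0.0886) did not pass the test, although neither overlapped between the groups. Adcy1 was called in 2 and Plekhb1 in 4 of the 9 other settings that kept all libraries, and Adcy1 rose in the diabetic retinas (0.30 ± 0.062, adjusted p = 0.0405).

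The largest rise was that of Kif4, which encodes a chromosome-binding kinesin of dividing cells (chrX:100625737-100727214). Kif4 had 2.92, 1.84, 3.58, 2.84 and 3.20 CPM in the ZT1 libraries and 9.81 to 13.0 CPM, with a median of 11.6, at ZT5. It was 4.03-fold higher at ZT5, a log2 fold change of 2.01 ± 0.19 (SE), with the smallest adjusted p of the comparison (3.32e-10), and it was called in all 11 leave-one-out fits. None of 26 genes of DNA replication and repair was called (median 0.0223), and none of 52 replication histone genes, of which 50 had a negative value (median -0.219). Kif4 lies 7.24 kb beyond the end of Arr3 on the same strand, and its first 832 bases overlap Pdzd11 on the other strand. Pdzd11 had 19.8 ± 1.77 CPM at ZT1 and 20.6 ± 0.855 CPM at ZT5 (0.06 ± 0.086, adjusted p = 0.913), and Gdpd2, the next tested gene beyond Kif4, had 2.30 ± 0.309 and 2.47 ± 0.648 CPM (0.12 ± 0.16). P2ry4, a nucleotide receptor gene 10.6 kb before Arr3 on the other strand, had 0.591 ± 0.123 and 1.23 ± 0.251 CPM and missed the threshold (1.08 ± 0.29, adjusted p = 0.0568). Over the 6 control time points, Kif4 and Arr3 both had their highest mean at ZT9, at 14.0 ± 3.79 and 238 ± 28.6 CPM, and their lowest at ZT21, at 2.84 ± 0.496 and 126 ± 22.7 CPM.

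Another pair of neighbours rose together. Klkb1, plasma prekallikrein, and F11, coagulation factor XI, lie 4.66 kb apart on the minus strand of chromosome 8 (chr8:45266689-45294859 and chr8:45241174-45262031). Klkb1 had 3.08, 3.20, 3.66, 1.22 and 2.52 CPM at ZT1 and 4.90 to 8.89 CPM, with a median of 6.37, at ZT5 (1.26 ± 0.25, adjusted p = 0.00451, called in all 11 leave-one-out fits). F11 had 1.42 to 2.38 CPM at ZT1 and 2.58 to 5.69 CPM at ZT5 (1.08 ± 0.28, adjusted p = 0.0411), and its call was lost in 7 of the 11 fits, with adjusted p up to 0.151 without ZT5 replicate 1 and of 0.133 without ZT1 replicate 6. Neither gene overlapped between the groups. Within 50 kb of each other lay 7 pairs among the 150 called genes with a position, and 6 of these pairs moved in the same direction.

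The other named risers came from unrelated families. Col19a1, a fibril-associated collagen (chr1:24261890-24587472), had 7.16, 8.67, 6.12, 5.03 and 5.67 CPM at ZT1 and 10.6 to 18.1 CPM, with a median of 16.1, at ZT5, without overlap (1.19 ± 0.22, adjusted p = 0.00148). Fabp4, a fatty acid binding protein of adipocytes, macrophages and capillaries, had 6.90 ± 1.99 and 13.9 ± 2.49 CPM (1.02 ± 0.24, adjusted p = 0.0299; 0.119 without ZT1 replicate 6). Tmod1, tropomodulin, which caps actin filaments, had 7.55 to 10.6 CPM at ZT1 and 12.7 to 14.9 CPM at ZT5 (0.58 ± 0.094, adjusted p = 0.000665). Col19a1 and Tmod1 were called in all 11 leave-one-out fits, whereas Fabp4 was lost in 6 of them. Nrap (1.09), Lca5l (0.90), Tmem255b (0.90), Myo1g (0.86) and Wisp1 (0.73) completed the largest named risers, of which Lca5l and Tmem255b were called in 10 of the 11 fits and the rest in 3. Without ZT1 replicate 6 the adjusted p was 0.133 for Nrap, 0.0969 for Myo1g and 0.103 for Wisp1, and without ZT5 replicate 1 it was 0.0633 for Lca5l and 0.0738 for Tmem255b. Wdr33, a subunit of the polyadenylation complex, rose by a small but even amount, from 80.6 ± 2.28 to 94.9 ± 2.27 CPM (0.24 ± 0.039, adjusted p = 0.000785). Gm5466, a processed pseudogene, rose from 16.6 ± 2.20 to 32.5 ± 4.84 CPM (0.97 ± 0.17, adjusted p = 0.00108).

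Among the long non-coding risers, Gm26954, which lies antisense to the active zone gene Pclo and was named after its value was seen, rose in all 11 leave-one-out fits, from 74.0 ± 10.5 CPM at ZT1 to 104 ± 7.92 CPM at ZT5 (0.49 ± 0.10, adjusted p = 0.00414). Gm44752, Gm11339, Gm43148 and Gm11738 had the largest changes of the predicted models that rose, from 2.39-fold for Gm11738 to 3.37-fold for Gm44752, but lay at or under 3.92 CPM in every library, overlapped between the groups and were called in 2 to 4 of the 11 leave-one-out fits. Without ZT1 replicate 6 their adjusted p was 0.119 for Gm44752, 0.0945 for Gm11339, 0.0994 for Gm43148 and 0.133 for Gm11738. AC164426.2 was the largest called predicted model among the fallers (-1.63 ± 0.42, adjusted p = 0.0420) and was called in 1 of the 11 fits, with an adjusted p of 0.118 without ZT1 replicate 6.

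The remaining named fallers had varied roles. Pde8b, a cyclic AMP phosphodiesterase, had 161, 169, 173, 178 and 157 CPM at ZT1 and 128 to 139 CPM at ZT5, without overlap (-0.32 ± 0.056, adjusted p = 0.00108). Mtmr4, an endosomal phosphoinositide phosphatase, fell from 110 ± 4.53 to 88.6 ± 2.92 CPM (-0.31 ± 0.052, adjusted p = 0.000785), and Arid5a, an RNA- and DNA-binding protein that stabilises inflammatory mRNAs, from 12.2 ± 1.96 to 8.04 ± 0.711 CPM (-0.60 ± 0.10, adjusted p = 0.000798). These 3 genes were called in all 11 leave-one-out fits. Irf7, an interferon regulatory factor, fell by 0.76 (SE 0.19, adjusted p = 0.0311) and Trim47, a ubiquitin ligase, by 0.74 (SE 0.18, adjusted p = 0.0329), each in 4 of the 11 fits, with adjusted p up to 0.148 and 0.125. Without ZT1 replicate 6 the adjusted p was 0.0538 for Irf7 and 0.125 for Trim47. Reads from a gene and one on the other strand cannot be told apart where the strand setting is unknown, which touches the called genes Irf7 (with Phrf1), Tmod1 (with Tstd2), Sik2 (with Ppp2r1b), Prcd (with Cygb), Pfkp (with Pitrm1), Tmem255b (with Gas6), Kif4 (with Pdzd11), Gm44752 (with Lrrk1), Gm11339 (with Scgn), Gm11738 (with Dnah17) and Gm26954 (with Pclo). Clock genes that were not called are touched too: Nr1d1 (with Thra), Dbp (with Sphk2), Ciart (with C920021L13Rik), Bhlhe40 (with 0610040F04Rik), Tef (with Gm17597) and Bhlhe41 (with Gm43909). Manf (with Rbm15b), Trim47 (with Trim65), Noct (with Gm38357) and the uncalled Per3 (with Camta1) and Clock (with Gm43658 and Ube2n-ps1) overlap a gene on their own strand and are uncertain at any setting.

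The means at the 6 control time points place these changes in the day, as a description with no test. Xbp1, Hspa5, Hk2, Pfkl, Ldha, Slc16a3, Ak4 and P4ha1 all had their highest control mean at ZT17, in the dark, with Xbp1 at 80.5 ± 9.40 CPM and Hk2 at 1079.8 ± 89.4 CPM (SD, n = 5). All of them but Hspa5 had their lowest mean at ZT5. Cirbp had the opposite order, with its highest mean at ZT5 and its lowest at ZT17 (129 ± 10.5 CPM). Fosl2 and Nr4a3 had their highest mean at ZT1 and a further mean near it at ZT9, of 16.8 ± 5.66 and 10.4 ± 4.44 CPM. Cry1 stayed between 55.5 and 61.2 CPM at the time points other than ZT5, where its mean was 49.7 CPM.

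**Figure D4:**
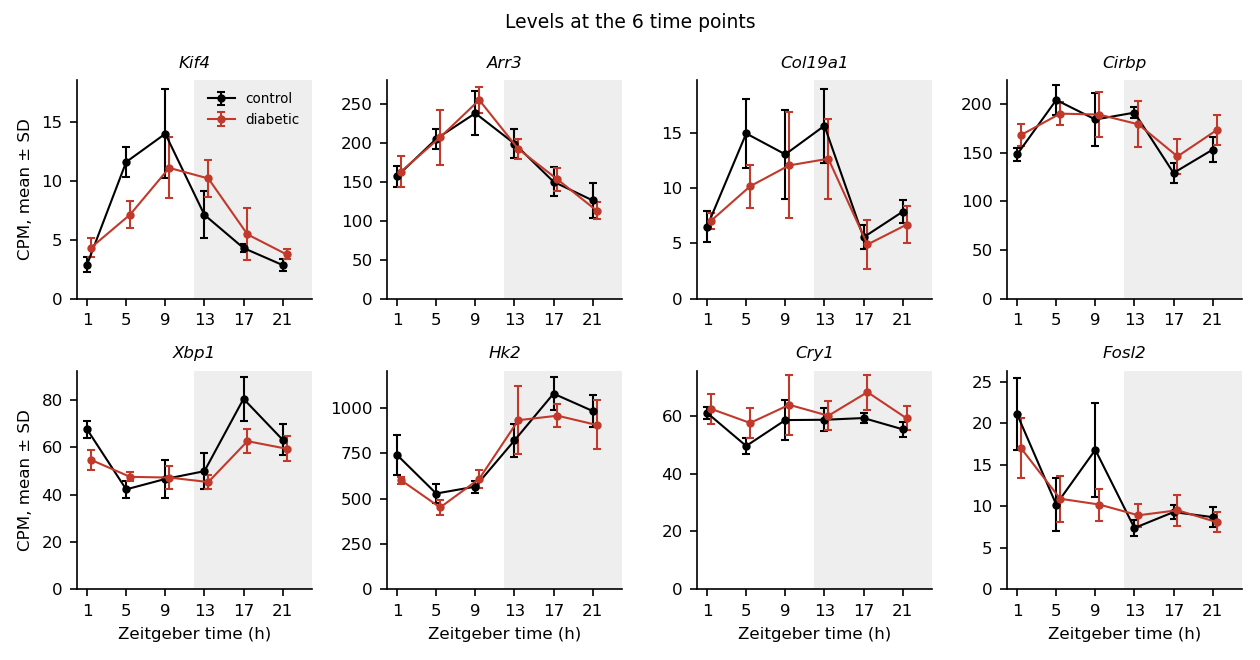
Mean CPM ± SD (y axis) at the 6 zeitgeber times in h (x axis) for 8 genes in control (black) and diabetic (red, shifted slightly to the right) retinas, with the dark phase shaded. Kif4 and Arr3 have their highest control means at ZT9, Xbp1 and Hk2 at ZT17, Cirbp at ZT5, and Fosl2 and Cry1 at ZT1; each mean covers 4 to 6 libraries.

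The same comparison in diabetic retinas, which used separate libraries, gave 4 called genes (0.0209% of 19120) and 761 with an unadjusted p under 0.05 (3.98%). The genes called in control retinas mostly kept their direction there, with 82 of 89 risers positive and 61 of 65 fallers negative, or 92.9% in all against 57.4% of all genes tested. In the diabetic retinas the median was nearer to 0, with a median log2 fold change of 0.18 for the risers and -0.17 for the fallers, although these genes had been selected on the control values. Pde8b (-0.33 ± 0.059, SE) and Utp20, a ribosomal RNA processing factor, were called in both genotypes. Utp20 rose by 0.29 ± 0.074 in control (adjusted p = 0.0420) and by 0.38 ± 0.077 in diabetic retinas. Its control call held in 2 of the 11 leave-one-out fits, with adjusted p up to 0.127 without ZT5 replicate 1 and 0.119 without ZT1 replicate 6.

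The difference between genotypes was itself tested by an interaction term, and no gene passed an adjusted p of 0.05 in the edgeR fit of all 12 groups, while 680 genes (3.56%) had an unadjusted p under 0.05. Kif4 came closest, rising by 2.01 ± 0.19 in control and by 0.70 ± 0.19 in diabetic retinas (difference 1.31, adjusted p = 0.261 by edgeR). It was the 1 gene called by DESeq2 (adjusted p = 0.0438), by limma-voom (0.0189) and by edgeR when only the groups compared were fitted (0.0385). Its diabetic mean was 4.32 ± 0.826 CPM at ZT1 and 7.13 ± 1.15 CPM at ZT5. Side by side, Xbp1 changed by -0.68 ± 0.088 and -0.20 ± 0.093 and Hspa5 by -0.52 ± 0.11 and -0.06 ± 0.11 in control and diabetic retinas, and the median of the 21 ER chaperone genes was -0.152 and 0.00211. Hk2 (-0.49 ± 0.092 and -0.42 ± 0.10), Pfkfb3 (-0.45 ± 0.084 and -0.35 ± 0.088) and Arr3 (0.39 ± 0.093 and 0.34 ± 0.10) had closer values. The other called glycolysis genes were nearer to 0 in the diabetic retinas, with Pfkl at -0.36 ± 0.079 and -0.04 ± 0.083, Ldha at -0.28 ± 0.069 and -0.07 ± 0.072 and Pfkp at -0.32 ± 0.066 and -0.13 ± 0.069, and the median of the 17 glycolysis genes was -0.236 and -0.0342. None of the differences of the genes other than Kif4 passed the interaction test in any of these fits, and the list medians were not tested.

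**Figure D5:**
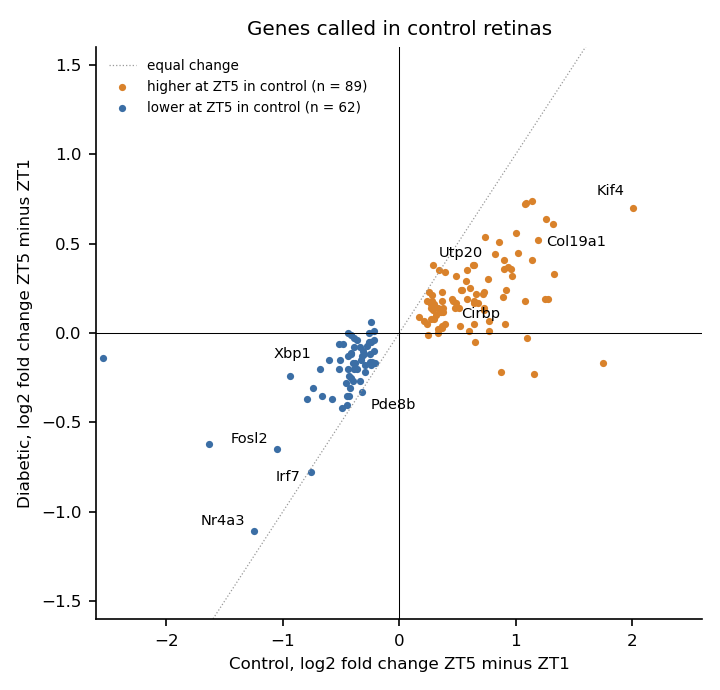
Log2 fold change from ZT1 to ZT5 in control (x axis) and diabetic retinas (y axis) for genes called in control, with the dotted line at equal change; Cryaa, Crybb1 and Crybb3 lie outside the axes. Most points share the sign of the control value (143 of 154) and lie nearer to 0 on the diabetic axis, while Pde8b, Irf7 and Nr4a3 lie close to the dotted line.

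Of the 41 gene lists that were not cell markers, 32 had no called member, and their median log2 fold changes ran from -0.219, for the replication histones, to 0.113, for 21 genes of cholesterol synthesis, of which 18 were positive. The 83 cytosolic ribosomal protein genes had a median of -0.0845 with 71 negative values, and of -0.0264 without ZT1 replicate 6. The 18 genes of the glucocorticoid receptor and its targets had a median of -0.0333. No gene was called among 11 of ON bipolar signalling, 13 of Muller glia homeostasis or 12 of reactive gliosis.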

How the data were processed

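Mouse retina RNA was sequenced in 58 libraries, and the deposited values are raw read counts per gene that the authors made with STAR 2.7.4a and HTSeq-count 0.11.1 on GRCm38, without normalization. The strand setting of the counting is not given in the sources used here. Samples were grouped by their labels. Genes with a median above 4 normalized counts over all libraries (19120 of 52459) were fitted with edgeR 4.0.16 (quasi-likelihood test, TMM factors, R 4.3.3) in 1 model of 12 groups, with Benjamini-Hochberg adjustment at 0.05, and the genotype difference was an interaction contrast. CPM of single genes are counts per 1000000 reads by TMM library size, and summed marker CPM are by counted reads without the TMM factor. DESeq2 1.42.0, limma 3.58.1, other factors, filters, thresholds, a replicate block, a length and GC correction, and leaving out each library were the alternatives. In simulated data 78% of genes changed by a factor of 2 and 59% of those changed by 1.5 were recovered in the control comparison of 19120 genes. Of the 146 genes called there, 9 were false. The simulated counts were drawn independently for each library, so they held no library that stood apart as ZT1 replicate 6 did.

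Named genes were the 10 largest named risers and fallers with an average of at least 1 CPM and no marker of other tissue, the 5 smallest p in each direction, all clock genes, up to 4 called members per list or the member with the smallest p, up to 5 predicted models or long non-coding RNAs and the 5 smallest interaction p. Other list members were named after their values were seen. The comparison, members and lists were chosen with earlier results of these data known. Gene positions are Gencode M21 on GRCm38, matched for 48082 symbols and for 197 by an older symbol, while 4180 were not matched. Promoters are RefSeq windows (GRCm38.p6), printed without bases inside the Gencode gene, except for Hspa5, where the element itself lies inside it. The Cry1 window follows the named genes, and the other windows were chosen after the values were seen. Some items are not reported here.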

Additional observations from a re-analysis of the deposited data

Results flagged for a closer look

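In 20 of 182 pairs of a group and a measure, 1 library lay far from the others of its group by Dixon's test, where chance gives about 1 in 20. ZT1 replicate 6 was the high library for the lens genes Cryaa (1566.8 CPM), Crybb1 (55.7 CPM) and Crybb3 (52.0 CPM), for Cryab (426 CPM), for the summed lens markers (3397.3 CPM) and for the summed blood markers (5.23 CPM). The same library was highest for the heat shock gene Hsph1 (72.4 CPM) and the lowest of its group for the clock output factor Hlf (272 CPM). ZT5 replicate 5 was the high ZT5 library for Cryaa (4.55 CPM), the summed lens markers (11.5 CPM) and the summed blood markers (8.60 CPM), and ZT5 replicate 6 was the one for Crybb1 (0.595 CPM). ZT5 replicate 4 had the largest share of mitochondrial mRNA reads (2.17%) and the highest summed amacrine cell markers (870 CPM). ZT1 replicate 4 had the lowest summed cone markers (911 CPM), and ZT5 replicate 2 the lowest summed Muller glia markers (3782.0 CPM). Among called genes, P4ha1 was lowest in ZT5 replicate 1 (65.7 CPM) and Pfkfb3 was highest in ZT1 replicate 1 (64.4 CPM). AC164426.2 stood apart in ZT1 replicate 4 (0.709 CPM) and in ZT5 replicate 6 (0.992 CPM).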

How the results depend on the processing

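All 154 called genes kept their direction in every alternative. Higher and lower counts were 89 and 65 as reported, 38 and 52 with no filter, 140 and 126 with the replicate block, 110 and 98 with DESeq2, 364 and 284 with limma-voom, 116 and 177 with the length and GC correction, and 17 and 20 at an adjusted p of 0.01. The share higher was 57.8% as reported, 39.6% with the length and GC correction, 42.2% with no filter and 42.1% when only the groups compared were fitted. Of the 154 calls, 98 remained when only the groups compared were fitted (69 higher and 95 lower called) and 77 with no filter. Leaving out 1 library gave 20 to 99 higher and 20 to 72 lower genes, the lowest without ZT5 replicate 1 and the highest without ZT5 replicate 5. The interaction called 0 genes in the edgeR fit of all groups and 1, Kif4, with only the groups compared, DESeq2 or limma-voom. Replicate numbers shared between the groups were not used as pairs in the main fit. Deviations of same-numbered libraries correlated at -0.0509 to 0.0162, and no library correlated best with its own number. Whether replicate number stands for a batch was not tested, and the replicate block gave more calls than the main fit. Of 1007 alternatives for 46 called named genes, 785 kept the call, 222 lost it and 0 reversed. Of 60 named genes that were not called, some became called, in 35 alternatives in all. With the length and GC correction, called fallers numbered 7 of 21 in the ER list, 6 of 17 in glycolysis and 4 of 21 among immediate early genes. The cause of these shifts was not tested. ZT5 replicate 3 was the shallowest library, and 75 genes were called without it.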
